A study of Rattus norvegicus with 11 samples.

Results

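The genes described here were those whose reads were plentiful in some samples and missing in others. They were chosen by their counts, as rows of the deposited table with at least 300 reads in 3 or more of the 11 samples and 3 or fewer reads in at least 1 sample, without ribosomal protein names of the Rpl and Rps type and without the stretch of chromosome 6 that holds the immunoglobulin heavy chain genes. Of the 32623 rows of the table, 113 met this rule, and 10008 rows reached 300 reads in 3 or more samples. Below, a gene is called present in a sample at 300 or more reads, absent at 3 or fewer, and intermediate otherwise. Wbp11 and Spsb2 were members. LOC108348082, which was set beside them as an example of the pattern, reached 300 reads in 2 samples alone and so was not a member.

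Peripheral leukocytes of male Wistar rats, 7 weeks old, were studied in collagen-induced arthritis (CIA), an autoimmune joint disease raised by injecting bovine type II collagen in incomplete Freund's adjuvant, with a boost on day 7. The 4 CIA rats were each sampled at Nampt++ status, about day 8, and at Nampt+ status, about day 14, and 3 normal rats served as controls. The authors set the Nampt status by their own PCR. Per their methods both statuses were sampled from the same rats, and the labels give each rat a number. Each sample was 1 library of poly(A) RNA made after lysis of the red cells.

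A genome annotation can list nearly the same gene at more than 1 place, and a read from such a gene matches each of them. In rat annotations the further entries often carry a LOC number, a clone name or the suffix -like beside the approved symbol of the gene. Other genes vary between outbred animals because the animals carry different alleles or different numbers of copies, as is well known for the class I genes of the rat major histocompatibility complex, RT1. Wistar rats are an outbred stock.

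Total counts per sample ranged from 65340027 to 85819418, and haemoglobin genes took 6.84% to 42.8% of them. The labelled cell type was checked with markers. The 12 leukocyte genes examined were detected in all 11 samples. The lowest count was 175, for Ncr1. Retina genes were examined too, because the deposited extraction protocol speaks of retinas. Crx and Rcvrn were at 0 in all samples, and Sag reached an FPKM, the reads of a gene scaled by its length and the library's total, of 1.86. Nampt+ rat 2 had the fewest reads outside haemoglobin, 41005331, against 49967117 to 69813321 in the other samples.

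The 113 genes gave 1243 values of a gene in a sample. Of these, 718 were present, 238 intermediate and 287 absent. An absent value was nearly always an exact 0, in 277 of 287. The deposited FPKM passed 0.1 in 2 of the 287 absent values and in each of the 718 present ones. A count of 0 allows a level of up to 3 reads, which covers counting error only. In 37 of the 113 genes no sample was intermediate. At the edge of the rule, the third highest count was 303 in AABR07073186, 309 in Siglech and 314 in LOC108348081, while 5 genes just outside reached 293 to 298. Caskin1, with a lowest count of 4, and RT1-T24-1 and LOC103694169, with 6, also fell just outside.

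Absence was spread over all groups. It was seen in 1 sample for 49 genes, in 2 for 23, in 3 to 5 for 28, and in 6 or more for 13, with 8 samples as the most. Per library, the number of absent genes was 25, 30 and 28 in controls 1 to 3, 24, 26, 21 and 22 in Nampt++ rats 1 to 4, and 21, 44, 26 and 20 in Nampt+ rats 1 to 4. Nampt+ rat 2 stood above the other 10 samples, and its lower count outside haemoglobin is given above. Over the 11 samples, the number of absent genes and the counts outside haemoglobin had a Pearson correlation of -0.556 and a rank correlation of -0.292. The part of depth in the number of absent genes was not tested. When the library of Nampt+ rat 2 was left out, 103 genes still met the rule.

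**Figure D1:**
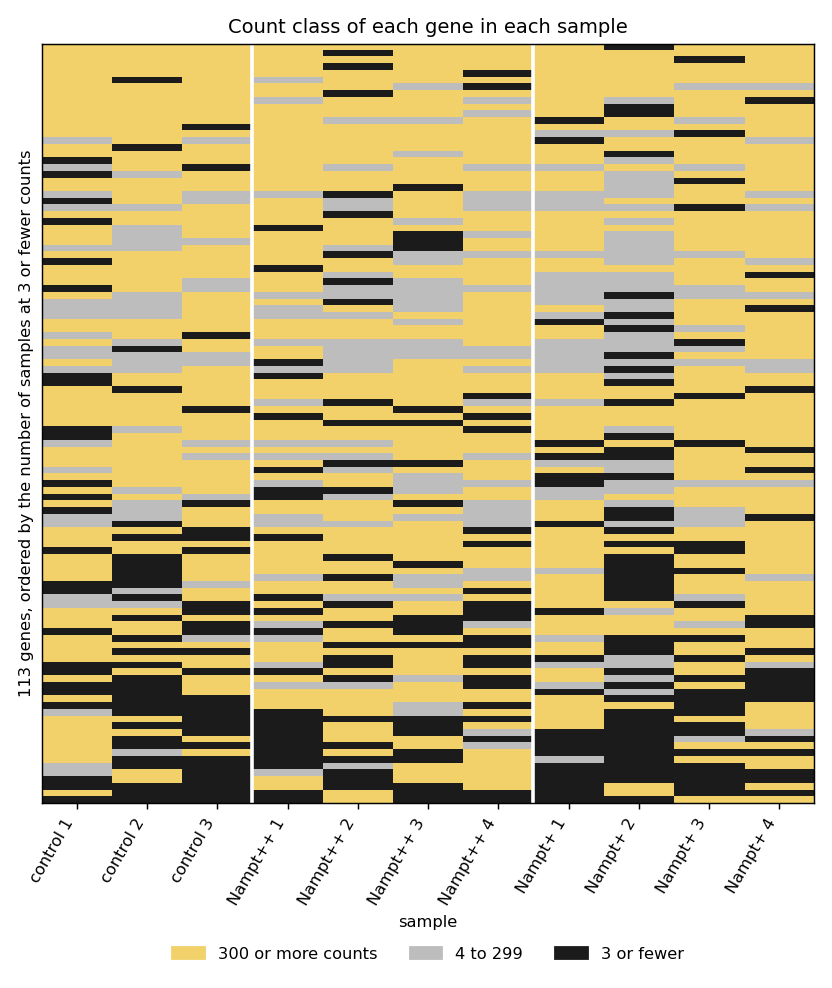
Each row is 1 of the 113 genes and each column 1 of the 11 samples, with yellow for 300 or more reads, grey for 4 to 299 and black for 3 or fewer. Rows run from genes absent in 1 sample at the top to genes absent in 8 at the bottom, and white lines part the 3 groups. Black cells lie in every column, with 44 in Nampt+ rat 2 and 20 to 30 in the others.

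Wbp11, which encodes a nuclear WW domain binding protein that takes part in pre-mRNA splicing, lies on chromosome 4 from 170772163 to 170810080 in the table, whose genome build is not named in the sources used here. Its counts were 3034, 3939 and 0 in controls 1 to 3. They were 0 in each of the 4 Nampt++ samples and 3093, 0, 6570 and 4245 in Nampt+ rats 1 to 4. The gene was thus either at 0 or at 3034 reads and above, and it was at 0 in all CIA rats at the earlier time and in 1 of them at the later time. Its copy Wbp11l1, also on chromosome 4, from 170154227 to 170186942, gave 2628, 2257 and 4416 reads in the controls, 2934, 3108, 5730 and 3573 in Nampt++ rats 1 to 4, and 2099, 2441, 3014 and 4681 in Nampt+ rats 1 to 4. The copy was present in all 11 samples and its groups overlapped.

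Spsb2, the adaptor of a ubiquitin ligase that targets inducible nitric oxide synthase for degradation, is placed on chromosome 9 from 20217278 to 20219209. It had 0 reads in all 3 controls, 1209, 0, 0 and 425 in Nampt++ rats 1 to 4, and 0, 310, 0 and 558 in Nampt+ rats 1 to 4. Its counterpart LOC100911548, described as SPRY domain-containing SOCS box protein 2-like and placed on chromosome 4 from 157326727 to 157328379, had 554, 485 and 449 reads in the controls, 0, 444, 508 and 471 in Nampt++ rats and 374, 323, 433 and 586 in Nampt+ rats. In the 3 samples where both were present, Spsb2 held 0.952 times the reads of its counterpart (median, range 0.902 to 0.960). The single sample in which LOC100911548 was at 0, Nampt++ rat 1, was the one with the highest Spsb2 count, so that the sum of both rows was never below 374.

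LOC108348082 stands on chromosome 10 and is described like Map2k3, a kinase that activates p38 MAP kinase. It had 8414 reads in control 2, 4330 in Nampt+ rat 4, 26 in Nampt++ rat 2 and 0 in the other 8 samples. Map2k3 itself was present throughout, at 2454 to 8788 reads. In the 2 samples that held LOC108348082 it had 8788 and 5756 reads, and in the 8 samples without it 2454 to 8473.

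**Figure D2:**
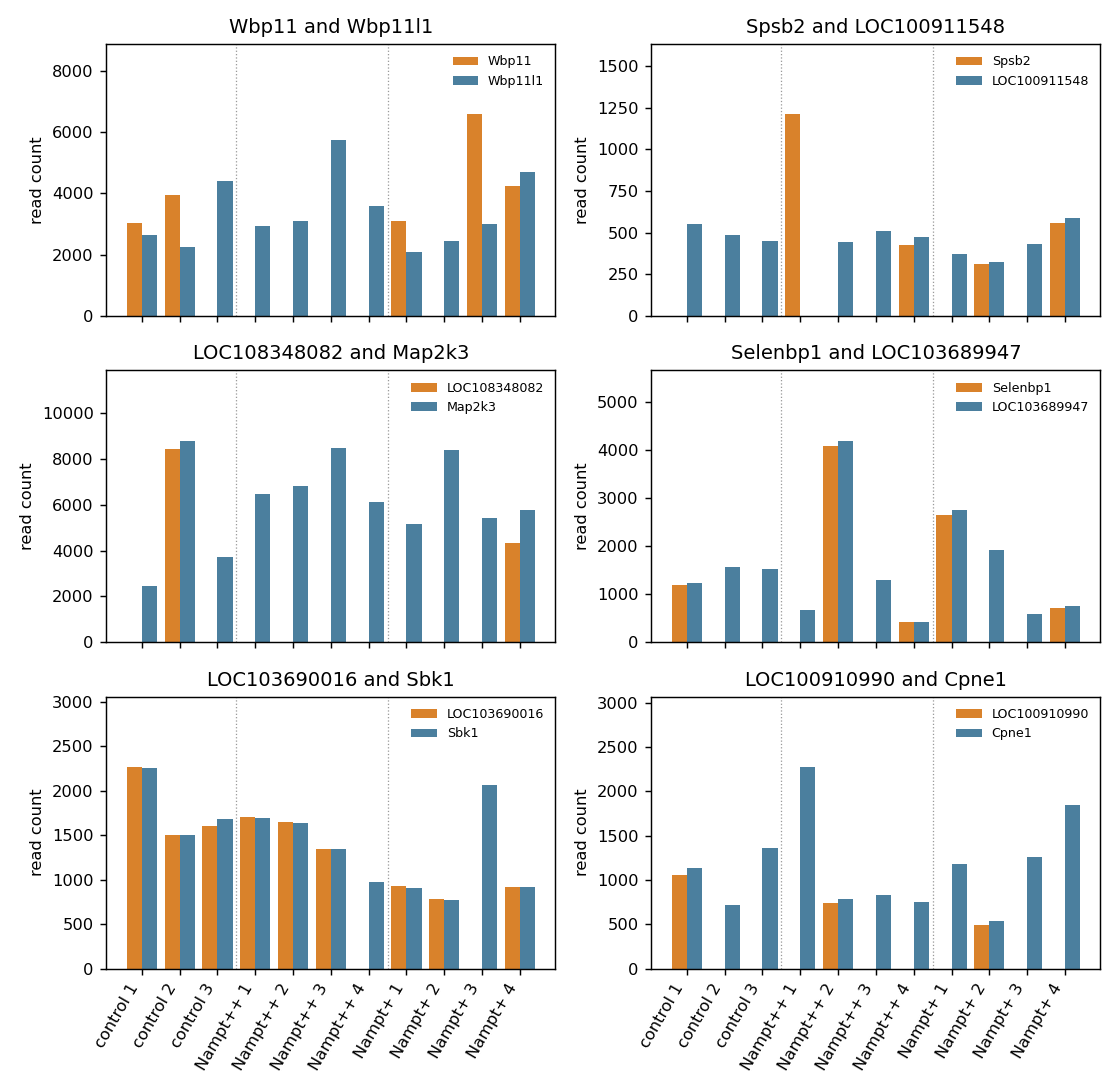
Read counts of 6 genes (orange) and of the row named as their copy (blue) in each of the 11 samples, on linear axes that start at 0. The orange bars are either missing or, in Selenbp1, LOC103690016 and LOC100910990, nearly as high as the blue ones, and the blue bars remain where the orange ones are missing.

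Of the 113 members, 21 shared their full Description with another row, which is 18.6% against 2.00% of the 10008 rows with 300 reads in 3 samples. Many copies carry a slightly different Description, so the match was widened, after the values had been seen but by names and annotation alone, to rows with the same KEGG orthology entry, the same Description apart from general words such as like, the gene's symbol in the Description, or the same set of GO terms. By this wider match 89 of the 113 genes had at least 1 copy, and for each the copy with the most reads was taken as its partner. The partner lay on the same chromosome for 73 of the 89. In 22 cases the partner was itself a member, which makes 11 pairs in which both rows came and went.

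The gene names were compared with the later GRCr8 assembly. Of the 113 members, 41.6% had a symbol listed there, against 90.8% of the 10008 rows. Of 70 pairs whose rows had different names, 63 had exactly 1 of their names in GRCr8, 4 had both and 3 had neither. The 4 with both were Wbp11, Mboat7, Tsen34 and Rsl1d1l1 with their partners. Among the 53 pairs with 1 name in GRCr8 in which the member alone came and went, the listed name was the partner's in 37 and the member's in 16. The row that came and went was thus often, but not always, the one whose name is not in the GRCr8 list.

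In samples where a gene was present and its partner was not absent, the ratio of their reads had a median of 0.948 over pairs, with quartiles of 0.528 and 1.06. Of the 545 such values, 255 (46.8%) lay between 0.8 and 1.25, and this held for the median of 42 of the 88 pairs that could be compared. LOC103690016, described as the kinase SBK1, is an example. It had 2264, 1497 and 1598 reads in the controls, 1703, 1645, 1340 and 0 in Nampt++ rats 1 to 4 and 924, 786, 0 and 923 in Nampt+ rats 1 to 4. Sbk1 on the same chromosome had 2253, 1503 and 1681, then 1697, 1633, 1342 and 978, and then 902, 777, 2065 and 916. The rows differed little wherever both were present, and Sbk1 kept its reads in the 2 samples in which the other row had none.

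Selenbp1, a selenium-binding protein on chromosome 2, had 1200, 0 and 0 reads in controls, 0, 4073, 0 and 420 in Nampt++ rats and 2650, 0, 0 and 720 in Nampt+ rats. Its partner LOC103689947 had 1231, 1571 and 1532 in controls, 677, 4190, 1298 and 427 in Nampt++ rats and 2751, 1910, 580 and 758 in Nampt+ rats. The 2 rows went up and down together in the 5 samples that held both, with a median ratio of 0.972. LOC103692171, which shares the Description of Mogs, the glucosidase that starts the trimming of N-linked glycans, was at 0 in Nampt+ rat 3 alone, where Mogs had 813 reads, and had a median ratio of 0.988 over the 9 samples in which it was present. LOC100910990, a copine-1-like row, was present in 3 samples, with 1059 reads in control 1, 738 in Nampt++ rat 2 and 487 in Nampt+ rat 2, and at 0 in the other 8, while Cpne1, a calcium-dependent phospholipid-binding protein, had 543 to 2273 reads throughout.

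Other pairs were unequal. LOC100910882, an RNA-binding protein 39-like row, was at 0 in control 3, Nampt++ rat 4 and Nampt+ rat 2 and otherwise had 1789 to 8741 reads. Its partner Rbm39, a splicing factor, had 10816 to 21446, and the median ratio was 0.482. LOC103689931 and Hnrnpab share the Description of an RNA-binding heterogeneous nuclear ribonucleoprotein. The former was at 0 in control 1 and Nampt++ rat 1, at 33 in Nampt+ rat 2 and at 7394 to 13288 elsewhere, and the latter lay between 7199 and 15935. LOC108348062 names a pair of rows on chromosome 6 for subunit H of translation initiation factor 3. The row that starts at 108745895 was at 0 in Nampt+ rat 2 and at 327 to 9625 in the other samples, whereas the row that starts at 10151729 had 7275 to 22836. In Mboat7, an acyltransferase of phosphatidylinositol, the ratio to Mboat7l1 was 0.214, and in Zmiz2, a transcriptional coactivator, the ratio to LOC103693776 was 0.527.

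Where a gene was absent its partner was absent as well in 8 of 228 values (3.51%), and where a gene was present its partner was absent in 43 of 588 (7.31%). The partner's level was compared as CPM, counts scaled to the library totals after TMM normalization, between the samples with the gene absent and those with it present. The median ratio over the 86 partners with a ratio was 1.07, with 64 within 1.5-fold, 11 above and 11 below. For the 41 of these partners whose reads lay within the ratio of 0.8 to 1.25 in as many shared samples as not, or more, the median was 1.08, with 29 within 1.5-fold. Most partners thus had about the same level whether the gene was present or absent. These comparisons follow from samples sorted by the counts that chose the genes and are given without a test.

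**Figure D3:**
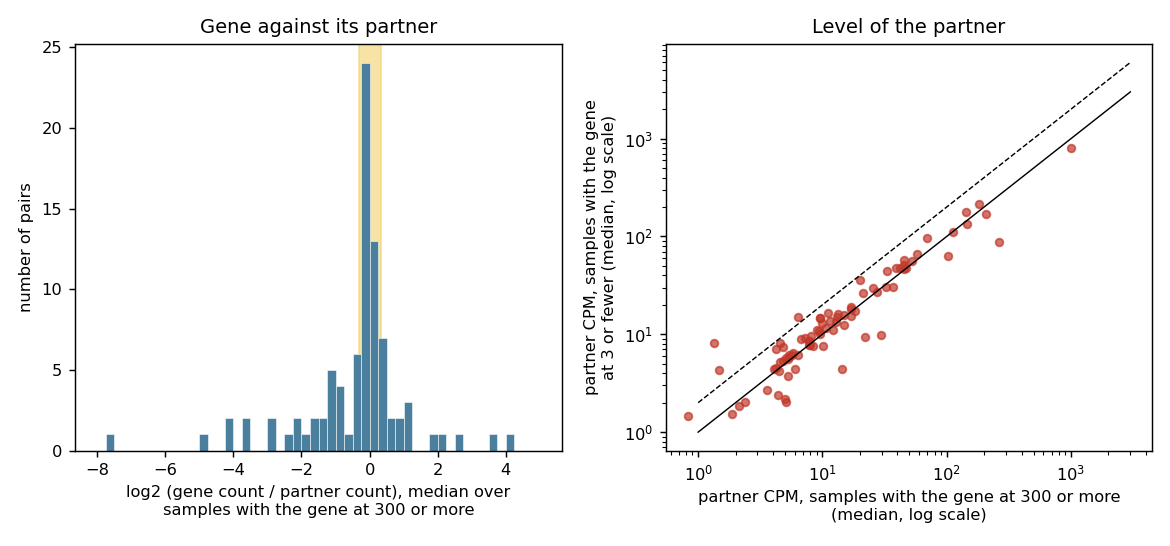
On the left, a histogram of 88 pairs by the log2 ratio of a gene's reads to its partner's reads, with a yellow band from 0.8 to 1.25, and on the right the median CPM of 83 partners in samples with the gene present (x, log scale) and absent (y, log scale). The solid line marks equal levels and the broken line a level 2 times as high, and most points lie near the solid line.

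A few pairs alternated. Nhp2, a protein of the H/ACA ribonucleoproteins that guide RNA modification, and LOC103690013, on chromosome 10, were at 0 in different samples, Nhp2 in control 2, Nampt++ rats 3 and 4 and Nampt+ rat 4 and LOC103690013 in control 1 and Nampt+ rat 2. Their sum was never below 571. Ndst2, an enzyme of heparan sulfate and heparin synthesis, and NEWGENE_1304700 behaved otherwise. Both were at 0 in Nampt+ rat 2, where no read stood on either row, while in 8 of the 9 samples that held both the ratio was within 0.8 to 1.25. In Faah, which degrades the endocannabinoid anandamide, the counts were 0, 602 and 0 in controls, 835, 1171, 709 and 866 in Nampt++ rats and 1381, 389, 0 and 893 in Nampt+ rats. Its partner LOC100911581 was at 0 in Nampt++ rat 4 and at 498 to 3657 elsewhere.

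Members were also summed with their copies, which can only raise a count and so is a description. With copies defined by the same Description, the sum reached 300 reads in every sample for 14 of 21 genes. By the wider match it did so for 59 of 89, where 38 of the 89 partners were present in every sample by themselves. The genes whose sum was present throughout with a copy of the same Description included Rlim, a ubiquitin ligase of the X chromosome that was at 0 in Nampt+ rat 3 alone and at 1727 to 5304 in the other samples, and Slc40a1, the iron exporter ferroportin, which was at 0 in Nampt++ rat 4 and Nampt+ rats 2 and 3 and at 891 to 1541 elsewhere. They also included Impad1, Nfs1, the desulfurase that supplies sulfur for iron-sulfur clusters, and NEWGENE_1562258, which shares its Description with Ino80b, a subunit of a chromatin remodeler.

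Some members lay near each other. With a gap of at most 200 kb between neighbours, 41 of the 113 genes fell into 15 runs. The same was not counted for other rows. On chromosome 4 a run from 114776797 to 114823500 held LOC103692167, LOC103692170, LOC103692169, LOC103692171 and NEWGENE_1562258, whose partners Pcgf1, Ccdc142, Mrpl53, Mogs and Ino80b lie on the same chromosome. On chromosome 1 a run from 213973489 to 214074663 held LOC100911440, Pnpla2, LOC100911730, AABR07006025 and Chid1. Spsb2, Lrrc23 and LOC100911672 on chromosome 9 faced LOC100911548, LOC100911585 and Atn1 on chromosome 4, in this order, as 3 pairs in which each row was a member. Genes of a run did not share all their absent samples. For 46 members with expressed rows within 10 kb, 76 pairs of a member and a neighbour were formed. Counted over these pairs, the neighbour was absent in 17 of the 203 values in which the member was. Pnpla2, the triglyceride lipase of lipid droplets, was at 0 in controls 2 and 3 and Nampt++ rat 1, whereas LOC100911730 beside it, a CD151-like row, was at 0 in Nampt++ rat 2 alone.

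By class, LOC names made up 38.1% of the members against 3.62% of the 10008 rows, clone names 16.8% against 4.87%, and a Description with -like 29.2% against 6.65%. Long intergenic non-coding RNAs made up 8.85% against 0.759%. Zinc finger proteins were 2.65% against 3.52%, mitochondrial proteins 3.54% against 2.25%, RNA splicing or processing genes 6.19% against 4.95% and ribosomal proteins by Description 2.65% against 2.57%. Of the other functional classes examined, genes of immunoglobulin production by GO made up 2.65% against 0.400%, receptors of the lectin, killer cell and paired types 1.77% against 0.400% and ubiquitin genes 0.885% against 1.91%, and no member was named as RT1, histone or proteasome. Rows overlapping another row on the same strand were 9.73% of members and 9.92% of the 10008 rows. A membership in a class says nothing of why its counts were missing, and these shares are given as a description.

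No copy was found for 24 genes. The match was by names and annotation, so a related row can be missed. Of these, Prss29 and Prss34 are serine proteases, and Prss34 is known from basophils and mast cells, the granulated cells of allergic responses. They lie beside each other on chromosome 10. The 250 bases before their start sites are shown because both genes were low in the same animals. They are RefSeq sequences of the GRCr8 assembly on the plus strand, chr10:14820197-14820446 for Prss34 and chr10:14841558-14841807 for Prss29, for which 2 start sites are listed and 1 is shown. Capitals mark GATAA or its reverse complement TTATC, the core bound by GATA factors.

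Prss34: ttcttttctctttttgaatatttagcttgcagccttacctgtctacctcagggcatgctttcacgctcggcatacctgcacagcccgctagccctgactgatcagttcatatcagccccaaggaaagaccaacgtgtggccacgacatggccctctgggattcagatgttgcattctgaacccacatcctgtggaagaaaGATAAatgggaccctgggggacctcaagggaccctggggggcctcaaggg
Prss29: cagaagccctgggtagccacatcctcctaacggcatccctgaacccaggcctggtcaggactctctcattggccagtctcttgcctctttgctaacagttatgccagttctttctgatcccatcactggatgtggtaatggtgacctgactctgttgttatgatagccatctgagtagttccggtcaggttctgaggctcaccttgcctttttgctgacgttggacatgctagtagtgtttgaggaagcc

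The Prss34 stretch held 1 match and the Prss29 stretch none, and 23.5% of all 33469 promoter stretches of this length held at least 1. Prss29 had 1617, 754 and 969 reads in controls, 12, 0, 1199 and 249 in Nampt++ rats 1 to 4 and 6, 0, 1571 and 2192 in Nampt+ rats 1 to 4. Prss34 had 641, 406 and 276 in controls, 8, 4, 403 and 180 in Nampt++ rats and 0, 0, 515 and 966 in Nampt+ rats. Both were at 12 reads or fewer in rats 1 and 2 at each time, and at 180 or more in the other samples. AC098959 is a row within 10 kb of Prss29 on the same strand that is described as similar to implantation serine proteinase 2. The match did not take it as a copy, so it may be a related row of Prss29 that was missed. AC098959 kept 156 and 79 reads in Nampt++ and 110 and 234 in Nampt+ rats 1 and 2. It had 153 to 808 reads in rats 3 and 4 and 106 to 617 in controls, so its values overlapped between these rats and the others. Other genes of basophils and mast cells, from a list added after the values had been seen, were detected in rats 1 and 2. Their levels differed widely, and Ms4a2 and Fcer1a, chains of the high-affinity IgE receptor, had 59 to 226 and 30 to 71 reads there, and Cpa3, a granule protease, 15 to 78. Hdc, which makes histamine, had 3566 and 1388 reads there at Nampt++ and 2963 and 977 at Nampt+ status, within or below the 3124 to 6150 of the controls, and Mcpt8l3, a granule protease, had 844 and 557 and then 747 and 910. The summed FPKM of 7 such genes (Ms4a2, Mcpt8l2, Mcpt8l3, Hdc, Cpa3, Fcer1a and Gata2) was 30.3 and 16.5 at Nampt++ and 31.8 and 17.2 at Nampt+ status in rats 1 and 2, 23.1 to 188 in rats 3 and 4 and 27.1 to 74.7 in controls, and none of the 7 was at 0 in any sample. In these mixed leukocytes, fewer cells of a type and less RNA per cell cannot be told apart.

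AABR07044383 has no Description and lies on chromosome 20 from 3791629 to 3796275, across LOC103690108, a row described as an RT1 class I chain of the kind that presents peptides to CD8 T cells. It had 1751, 1748 and 405 reads in controls, 2908, 1823, 7 and 2 in Nampt++ rats 1 to 4 and 1960, 1126, 18 and 6 in Nampt+ rats 1 to 4. LOC103690108 had 9891, 16298 and 17877 in controls, 39088, 23511, 111 and 134 in Nampt++ rats and 22684, 16093, 187 and 154 in Nampt+ rats. Both rows were low in rats 3 and 4 at each time and high in rats 1 and 2. In controls they did not go together, as control 3 was the lowest in AABR07044383 and the highest in LOC103690108. RT1-CE4, another class I gene on this chromosome, went the other way, with 5246 to 10236 reads in rats 1 and 2, 19917 to 26615 in rats 3 and 4, and 13130 to 15352 in controls.

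Some other genes with no copy changed state within rats. Adamts13, the protease that cleaves von Willebrand factor, had 1036 to 1651 reads in controls, 1189, 15, 4 and 972 in Nampt++ rats 1 to 4 and 1, 587, 18 and 1413 in Nampt+ rats. Serpinb11, a serpin, had 1149, 1311 and 2653 in controls, 19, 715, 1115 and 11 in Nampt++ rats and 1441, 8, 417 and 0 in Nampt+ rats. In both genes rats 1 and 2 changed sides between the times and rats 3 and 4 did not. Mfsd14a, a membrane transporter of the major facilitator family, was at 0 in Nampt++ rat 2 alone and at 2639 to 6371 elsewhere. Rgs4, a regulator of G protein signalling, had 1248, 356 and 0 reads in controls, 0, 372, 0 and 203 in Nampt++ rats and 0, 0, 0 and 173 in Nampt+ rats. Rbm12, an RNA-binding protein, was present in control 1, Nampt++ rat 4 and Nampt+ rats 3 and 4, had 291 reads in Nampt+ rat 1, and was at 0 in the other 6 samples.

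**Figure D4:**
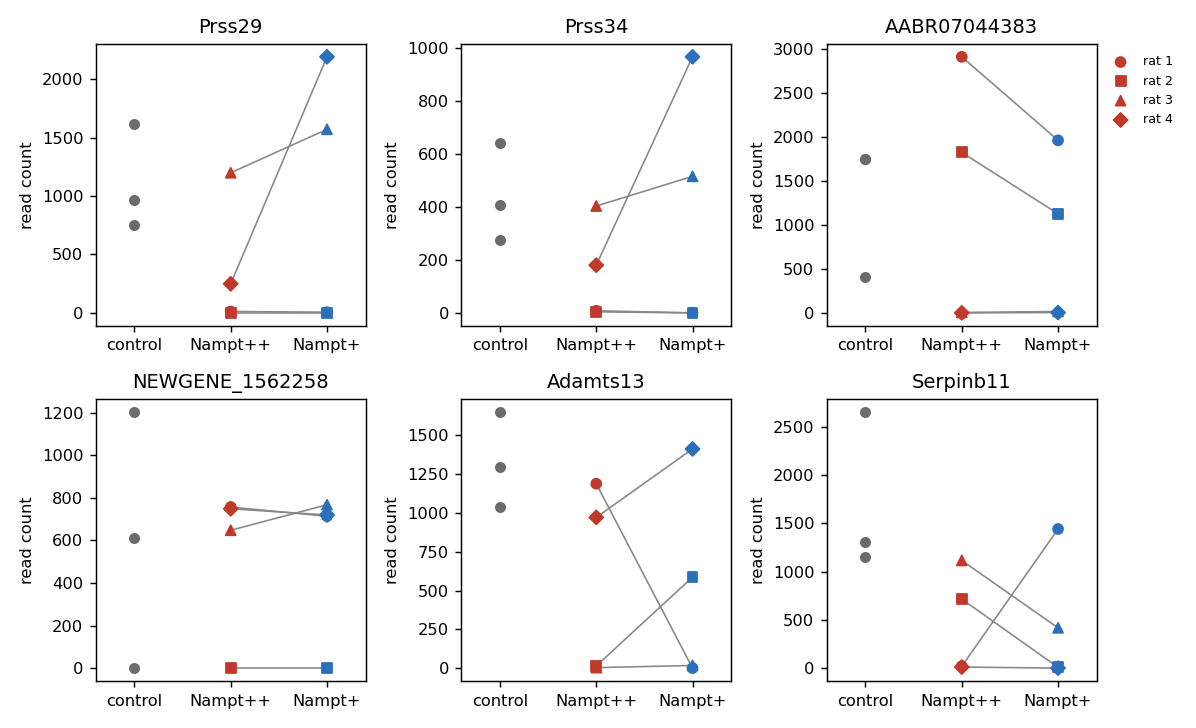
Read counts of 6 genes in the 3 controls (grey), the Nampt++ samples (red) and the Nampt+ samples (blue) on linear axes, with a line joining the 2 samples of each of the 4 rats. Prss29, Prss34, AABR07044383 and NEWGENE_1562258 stayed low in the same 2 or 1 rats at both times, while in Adamts13 and Serpinb11 the lines of rats 1 and 2 cross.

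As each CIA rat was sampled 2 times, the states could be compared within and between animals. In the same rat, 49.1% of the 113 genes on average were in the same state at Nampt++ and Nampt+ status, with 57.5%, 32.7%, 51.3% and 54.9% in rats 1 to 4. For the 12 pairings of different rats the mean was 49.0%, with a range of 35.4% to 61.9%. On average, samples of the same rat were thus not more alike in these genes than samples of different rats. The highest share, 61.9%, was that of Nampt++ rat 2 with Nampt+ rat 1. All statements on the same rat rest on the numbers in the labels. Over expressed genes, the deviations of same-numbered samples from their group means correlated negatively in rats 1 and 2 and positively in rats 3 and 4. Whether the numbers follow the animals was not tested. Among the 89 genes with a copy the shares were 48.3% within and 52.5% between rats, and among the 24 without, 52.1% and 35.8%. In all 4 rats 4 genes kept their state. Surf2 and Rsl1d1l1 were present in all 8 CIA samples, LOC100910990 was present in rat 2 and at 0 in the other rats at both times, and NEWGENE_1562258 was at 0 in rat 2 and at 648 to 768 reads in the others. Counting the sides of 30 reads, 17 genes kept their side in all 4 rats.

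The opposite was seen too. Wbp11, Mboat7, Zmiz2 and Cfb went from present to absent or back in 3 of the 4 rats. Mboat7 had 0, 502, 1348 and 855 reads in Nampt++ rats 1 to 4 and 1028, 0, 1932 and 0 in Nampt+ rats. Zmiz2 had 1217, 0, 1893 and 0, and then 1821, 815, 0 and 496. Cfb, a protease component of the alternative complement pathway, had 988, 0, 595 and 1598 at Nampt++ and 0 in each of the 4 Nampt+ samples. A second Cfb row lies across it on the same strand. This row had 13, 266, 114 and 141 reads in Nampt++ rats 1 to 4, and 282, 422, 406 and 765 in Nampt+ rats. All its Nampt+ values thus lay above its Nampt++ values, and controls had 451, 108 and 238.

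The groups were compared to learn whether presence or absence went with Nampt status or arthritis. To be called, a gene had to differ more than 2 times between the mean FPKMs of the groups and to have an unadjusted p below 0.05 by edgeR's quasi-likelihood test, fitted over all rows whose mean FPKM reached 1. Between Nampt+ and Nampt++ samples, 2 of 97 members tested were called (1 higher, 1 lower), where 0.642% of all genes tested were (0.312% higher, 0.33% lower). Between Nampt++ samples and controls it was 4 of 99 (3 higher, 1 lower), with 0.686% of all genes called (0.33% higher, 0.357% lower), and between Nampt+ samples and controls 5 of 100 (4 higher, 1 lower), with 0.497% (0.213% higher, 0.284% lower). No gene of the table passed an adjusted p of 0.05 in any comparison by this test, and the lowest adjusted p of a member was 0.203. At an unadjusted p under 0.05 alone, 256, 176 and 98 genes of the table passed, in this order, which is 2.28%, 1.57% and 0.87%, and of the members 2, 4 and 5. DESeq2 gave 5, 5 and 4 genes of the table at an adjusted p of 0.05, and limma on log2(FPKM + 1) gave 0 in each. Members were among the DESeq2 genes. The unadjusted DESeq2 p was 5.26e-06 for Wbp11 between Nampt+ and Nampt++ samples and 3.47e-11 for Spsb2 between Nampt++ samples and controls. Between Nampt+ samples and controls it was 1.02e-22 for LOC103689986, 9.11e-11 for Spsb2 and 3.55e-10 for LOC103692167. Each of these genes had 0 reads in every sample of 1 of the groups compared. The directions rested on single libraries, since without Nampt++ replicate 1 the calls for Nampt++ against controls were 0 higher and 3 lower, and without Nampt+ replicate 4 those for Nampt+ against controls were 2 higher and 3 lower. Without these libraries, 0.767% and 0.438% of all genes were called. The members were chosen for a wide spread of these same counts, so the shares called are a description. The comparisons with controls share the control samples.

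Wbp11 was the member called between Nampt+ and Nampt++ samples on the higher side (adjusted p = 1.00). With 0 reads in all Nampt++ samples its level at Nampt+ status was at least 4876-fold higher, against a floor of 3 reads over the group. It was higher in 3 of 4 rats and at 0 at both times in rat 2, and an exact two-sided permutation test of log2(FPKM + 1) gave p = 0.143. Wbp11 was also called lower in Nampt++ samples than in controls (adjusted p = 1.00), and the level in controls was at least 2997-fold higher. Its copy Wbp11l1 was not called in either, with a log2 fold change of -0.15 ± 0.30 (SE) for Nampt+ against Nampt++ and 0.37 ± 0.24 (SE) for Nampt++ against controls. The counts of Wbp11 did not separate the groups, since 1 Nampt+ sample and 1 control had 0 reads too.

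Cfb was the member called lower at Nampt+ than at Nampt++ status (adjusted p = 1.00), by at least 1008-fold, with 0 reads in all Nampt+ samples and 1 Nampt++ sample. The call ended when rows of the same Description were summed, with a log2 fold change of -0.77. The second Cfb row had a mean FPKM of 0.356 ± 0.273 (SD, n = 4) at Nampt++ and 1.33 ± 0.596 (SD, n = 4) at Nampt+ status. With the rat as a replicate block, 4 members were called in place of 2, namely Wbp11 on the higher side and Cfb, Tsen34 and LOC103692170 on the lower side. In that fit 0.499% of all genes were called. No gene of the table passed an adjusted p of 0.05 there, and 166 passed an unadjusted p of 0.05. Tsen34, a subunit of the tRNA splicing endonuclease, had 894, 427, 618 and 198 reads in Nampt++ and 5, 0, 0 and 565 in Nampt+ rats, and LOC103692170, a row named like Ccdc142, had 447, 651, 627 and 456 and then 824, 0, 0 and 0. LOC108348082, which is no member, also passed for Nampt+ against Nampt++ and for Nampt++ against controls (adjusted p = 1.00 in each), with reads in 1 sample of each group.

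Against controls, Spsb2 was called higher in Nampt++ and in Nampt+ samples (adjusted p = 1.00 in each), by at least 422-fold and 236-fold, with 2 of 4 samples above 0 in each group and 0 of 3 controls. LOC103693563, which shares the KEGG entry of Abhd10, a mitochondrial esterase, was at 0 in all controls and had 594, 505, 68 and 0 reads in Nampt++ and 547, 319, 0 and 571 in Nampt+ rats, and was called higher in both, by at least 302-fold and 391-fold. Zmiz2 had 7, 14 and 0 reads in controls and was called higher in both too, with its values in the CIA rats given above and at 0 in 3 of those 8 samples. LOC103692167, a Pcgf1 copy of the polycomb group, was at 0 in all controls. It was present in Nampt++ rat 2 and Nampt+ rats 3 and 4, and was called higher in Nampt+ samples. For Nampt++ samples against controls it was not tested, as its mean FPKM there did not reach 1. The difference between the times was not called for it. LOC103689986, a row described as YIF1B, a protein of transport between the endoplasmic reticulum and the Golgi, had 415, 225 and 632 reads in controls, 0, 367, 0 and 347 in Nampt++ rats and 0 in all Nampt+ rats (adjusted p = 0.203). The other calls against controls had an adjusted p of 1.00. The level in controls was at least 520-fold that in Nampt+ samples. Both Spsb2 calls, that of Zmiz2 in Nampt++ samples and that of LOC103692167 ended when any 1 control was left out. The Spsb2 calls also ended without Nampt++ replicate 4 and without Nampt+ replicate 2, and the Zmiz2 call without Nampt++ replicate 1. Other calls were lost because the mean FPKM then did not reach 1. This was so for Spsb2 without Nampt++ replicate 1 and without Nampt+ replicate 4. In Nampt++ samples it held for Zmiz2 without Nampt++ replicate 3 and for LOC103693563 without Nampt++ replicate 1. In Nampt+ samples it held for LOC103692167 without Nampt+ replicate 3 or 4, and for LOC103689986 without control replicate 1 or 3. None of the partners of these called genes was called in the same comparison. Yif1b differed by 0.10 ± 0.32 (log2, SE) between Nampt+ samples and controls, Abhd10 by -0.38 ± 0.19, Pcgf1 by -0.63 ± 0.41 and LOC103693776 by -0.06 ± 0.18. Of the partners, 0 of 80, 2 of 81 and 2 of 82 were called in the 3 comparisons, in the order above. Their fold changes had a median SE of 0.32, 0.31 and 0.32 on the log2 scale, where that of the members was 1.27, 1.33 and 1.42.

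Few members had counts that did not overlap between groups. Between Nampt+ and Nampt++ samples there were none among those tested, with 0.802% of all genes tested. LOC100910750, a Dhx15-like row below the FPKM filter, had 435, 459, 794 and 860 reads in Nampt++ rats and 0, 239, 2 and 0 in Nampt+ rats. In controls it had 0, 0 and 677 reads. Dhx15, a helicase that takes spliceosomes apart, had 3790 to 14045 reads and did not follow it. Between Nampt++ samples and controls, Serpinb11 and Impad1 were lower and Faah was higher without overlap (1.27% of all genes), and between Nampt+ samples and controls LOC103690016 and LOC103689986 were lower (0.586% of all genes). Serpinb11 had a log2 fold change of -1.77 ± 1.30 (SE), Faah 1.96 ± 1.76, Impad1 -1.48 ± 1.72 and LOC103690016 -1.12 ± 1.26, each less than 2 SE from 0, and of these 5 genes LOC103689986 alone was called.

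Over the 11 samples, the genes most like Wbp11 in their states were LOC100910528, alike in 9 samples, and LOC100910882 and Rbm12, alike in 8. LOC100910528, a mitochondrial ribosomal protein L36-like row, was at 0 in Nampt++ rats 2, 3 and 4 and Nampt+ rat 2. Cfb, Faah and LOC103693563 shared 7 states with Spsb2, and LOC103692167 shared 8 and Rgs4 and Wbp11 7 with LOC108348082. No other gene matched Wbp11 or Spsb2 in all 11 samples. LOC100911725, a row described like Pfkfb4, the enzyme that makes and breaks down fructose 2,6-bisphosphate, was at 0 and 4 in Nampt+ rats 1 and 4 and at 115 to 1370 elsewhere, beside 553 to 3111 in the second row of that name.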

How the data were processed

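Poly(A) RNA of peripheral leukocytes was sequenced as paired reads of 150 bases. The authors deposited 1 table with a read count and an FPKM for each gene and sample; per the submitters' processing notes, cutadapt 1.9, HISAT2 2.0.4 and StringTie 1.3.4 were used. The counting program, its treatment of reads with several matches and the genome build are not given in the sources used here. A deposited FPKM of 0.0001 was read as 0. The authors' own fold changes and p-values in the table were not used.

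The genes and lists were chosen with earlier results of these data known, and the wider match of copies, the basophil list and the genes shown with no copy, as well as Nhp2, Ndst2, Mogs and the genes of the runs, after the values had been seen. Further genes were named by rule: Wbp11, Spsb2 and LOC108348082, genes with no overlap between groups, the 10 highest counts, genes whose sum with a copy was present throughout, genes in a constant or changing state within rats, the genes most alike in state, the genes called in a comparison, and their copies. Of the marker lists (12 leukocyte, 7 retina, 4 red cell and 3 platelet genes found), Hba-a1 was not found. Red cell genes ranged in FPKM from 11.8 up and platelet genes from 2.73 up.

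Counts were tested with edgeR 4.0.16 (quasi-likelihood test, TMM, R 4.3.3) over all rows whose mean FPKM reached 1 in the samples compared, with Benjamini-Hochberg adjustment, and the calculation was tested on simulated data. DESeq2 1.42.0, limma 3.58.1 on log2(FPKM + 1), other filters and scalings, and leaving out each sample were alternatives. Tables and plots were made with Python 3.11.15, pandas 2.3.3, numpy 2.4.6 and matplotlib 3.10.9. Same-numbered Nampt++ and Nampt+ samples are the same rat by the labels and methods, so the rat was a block in 1 alternative. Their deviations from the group means correlated at -0.205, -0.197, 0.189 and 0.124 over genes in rats 1 to 4. With 1 library per sample, p-values measure the spread between these samples.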

Additional observations from a re-analysis of the deposited data

Results flagged for a closer look

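Among the 62 groups of 4 samples looked at for the genes named above, 19 held 1 sample far from the other 3 by Dixon's test (12 high, 7 low). Chance flags about 1 in 20 groups, but the genes were chosen for samples near 0 beside samples with many reads, so the number of such groups follows from that choice and is not read against chance. The high samples were LOC108348082 with 26 reads in Nampt++ rat 2 and 4330 in Nampt+ rat 4, LOC100910750 with 239 in Nampt+ rat 2, LOC108348062 with 9625 in Nampt+ rat 3, and Selenbp1 with 4073 in Nampt++ rat 2. LOC100911725 with 1370 in Nampt++ rat 3, LOC100910528 with 614 in Nampt++ rat 1, Rbm12 with 304 in Nampt++ rat 4, LOC103692167 with 478 in Nampt++ rat 2, and Rgs4 with 173 in Nampt+ rat 4 were high too. LOC100910990 was high in rat 2 at both times, with 738 and 487 reads.

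The low samples were LOC103690016 at 0 in Nampt+ rat 3, LOC103689931 at 0 in Nampt++ rat 1 and 33 in Nampt+ rat 2, Pnpla2 at 0 in Nampt++ rat 1, and LOC100910528 at 0 in Nampt+ rat 2. NEWGENE_1562258 was at 0 in rat 2 at both times.

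The difference from controls changed between the 2 times for Wbp11, at least 4876-fold higher at Nampt+ status, and for Cfb, at least 1008-fold lower. Both passed the unadjusted threshold of edgeR's quasi-likelihood test, and both had an adjusted p of 1.00. With the rows of the same Description summed, Cfb had a log2 fold change of -0.77 and did not pass. With the same controls in both, this is the comparison of Nampt+ with Nampt++ samples given above.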

How the results depend on the processing

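The number of genes chosen, 113, became 275 with presence from 100 reads and 31 from 1000 reads, and 100 to 109 when a sample was left out, which was added after seeing the data. The 14 genes whose sum with copies was present throughout became 8 with copies by gene name and 59 by the wider match. The 4 genes in the same state at both times became 17 by the same side of 30 reads. The 2, 4 and 5 members called for Nampt+ against Nampt++, Nampt++ against controls and Nampt+ against controls became 9, 18 and 17 with limma, with 0.865%, 1.37% and 0.754% of all genes called. They became 0 in each with a mean FPKM of at least 10 (15, 17 and 18 members tested) or by edgeR's adjusted p alone. The first also became 4 with no filter, 1 with rows of the same Description summed and 4 with the replicate block. Of all genes, 1.52%, 0.621% and 0.499% were called there. Leaving out a sample gave 2 to 4, then 3 to 7, and 4 to 6. The highest of the first came without Nampt++ replicate 1 (0.920% of all genes), and of the second without control replicate 2 (4.09%). Over these settings 0.521% to 1.45%, 0.474% to 4.09% and 0.438% to 1.20% of all genes were called. DESeq2 called 2, 3 and 5, with 0.927%, 1.08% and 0.648% of all genes called. The fold changes of the called genes kept their direction in all 161 settings in which they were tested. For each of these genes but Zmiz2, 1 of the groups compared had 0 reads in every sample. Their direction could thus hardly turn, except when rows were summed. The setting by adjusted p alone uses the main fit again. In 29 of the 161 settings the called genes no longer passed. These include the summing of rows for Cfb. They also include the leaving out of any 1 control for both Spsb2 calls, Zmiz2 in Nampt++ samples and LOC103692167. Settings in which a called gene fell below the filter on mean FPKM, and so was not tested, are not among the 161. The causes were not tested.

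Each state rests on 1 library per sample, and how reads with several matches were counted cannot be seen in the table.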

Other observations

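Some rows with no copy by the match used above carry the annotation of immunoglobulin production, and were looked at after their values had been seen. They are 3 of the 113 genes (2.65%), against 0.400% of the 10008 rows. AABR07051670 had 0, 0 and 516 reads in controls, 13, 10, 733 and 0 in Nampt++ rats 1 to 4 and 244, 0, 1070 and 0 in Nampt+ rats. AABR07013111 had 0, 0 and 473, then 15, 0, 545 and 0, and then 90, 11, 446 and 47. Both were present in control 3 and in rat 3 at both times, and in no other sample. AABR07051548 had 4, 2 and 525, then 2, 4, 129 and 306, and then 659, 2, 255 and 340, so it was low in rat 2 at both times. A second row of the same name overlaps it on the other strand. That row had 375 to 1051 reads over all samples, with 547 and 375 in rat 2.

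Of the RT1 genes beside the members, RT1-N2, a class Ib gene, had 28 and 12 reads in Nampt++ rat 1 and Nampt+ rat 2, 426 and 830 in the other samples of these rats, and 2306 to 7347 in the remaining samples. RT1-CE3, a class I gene, had 210 reads in control 2 and 211 and 157 in rat 2, and 2005 to 5123 in the others. Siglech, a receptor of plasmacytoid dendritic cells, was at 0 in Nampt++ rat 1 and at 52 to 417 reads elsewhere. Ctrb1, the precursor of the pancreatic protease chymotrypsin, had 908, 956 and 0 reads in controls, 210, 0, 0 and 8 in Nampt++ rats and 907, 1156, 19 and 0 in Nampt+ rats.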
